A study of Mus musculus with 4 samples.

Results

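The genes described here are 46 genes of the cell surface and extracellular matrix, taken from the 52636 gene identifiers counted in each of 4 RNA-seq libraries by matching their symbols to a fixed set of names. They comprise the core proteins of proteoglycans (6 glypicans, 4 syndecans, 3 testicans, 5 small leucine-rich proteoglycans and 4 lecticans), the hyaluronan synthase gene *Has2*, 19 genes for enzymes that start, extend, modify or trim heparan sulfate, and 4 matricellular genes (*Sparc*, *Sparcl1*, *Tnc* and *Postn*). The last 4 are neither proteoglycans nor enzymes and were part of the same set of names. The libraries came from tdTomato+ cells sorted by FACS from embryonic mouse kidneys (E12.5 to E12.75), with tamoxifen by oral gavage begun 48 h earlier. The 2 control libraries came from *Eya1*CreER;tdTomato embryos, and the 2 *Eya1*cKO libraries from embryos that also carried *Eya1* fl/fl, all on a mixed C57BL/6J and 129/Sv background. CreER is expressed from the *Eya1* locus, so the control cells carried an *Eya1*CreER allele and had received tamoxifen as well, and the tdTomato label marks cells that expressed *Eya1* when CreER was active, together with their descendants. Each library was made from 5000 cells. The suspensions had been pooled, and a genotype's libraries were portions of the same sort, so the *P* values measure the spread between these libraries, which may be technical. The paper proposes that the tamoxifen doses left some *Eya1* in place after 48 h. The question put to these genes was how their levels differed between the control and *Eya1*cKO libraries.

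Heparan sulfate and chondroitin sulfate are long, sulfated sugar chains that are built in the Golgi on a serine of a core protein, beginning with a xylose. Glypicans hold their chains at the cell surface through a lipid anchor and syndecans through a membrane-spanning stretch, while small leucine-rich proteoglycans, lecticans and testicans are secreted. The chains bind growth factors, and their sulfation pattern, which is written by sulfotransferases and edited outside the cell by 6-O-endosulfatases, sets which ligands they hold. In the developing kidney, heparan sulfate takes part in signalling between the ureteric bud and the nephron progenitors that surround it, including signalling by Gdnf, Fgf, Wnt and Bmp proteins.

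Gene counts summed to 35411905 and 37999342 in the control libraries and to 22239293 and 17457452 in the *Eya1*cKO libraries. The targeted gene, *Eya1*, was at 189 and 171 CPM (counts scaled to the library total with edgeR's TMM factors) in control 1 and 2 and at 16.7 and 12.5 CPM in *Eya1*cKO 1 and 2. All 10 nephron progenitor markers were lower in *Eya1*cKO, and their summed level went from 1939 to 1959 CPM in the controls to 384 to 417 CPM. Of 8 markers each, 7 of podocytes, 8 of endothelium, 8 of adrenal cortex and 8 of the sympathoadrenal lineage were higher. For adrenal cortex the summed level was 57.5 to 66.0 CPM in the controls and 880 to 945 CPM in *Eya1*cKO, and for the sympathoadrenal lineage 5.30 to 8.57 and 557 to 602 CPM. Of 8 ureteric bud markers, 2 were lower and their sum was 260 to 283 CPM in the controls against 155 to 185 CPM. The *Eya1*cKO libraries thus differed from the controls in markers of several cell types.

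Of the 46 genes, 45 passed the filter on low counts and were tested with edgeR's quasi-likelihood test. At a Benjamini-Hochberg adjusted *P* of 0.05 over all 19041 genes tested, 12 were higher and 7 were lower in *Eya1*cKO, and 26 did not pass. These are 26.7% and 15.6% of the genes tested here, where 5.15% of all genes tested were higher and 4.41% were lower. Both *Eya1*cKO libraries lay above both controls for 21 of the 45 genes and below them for 13, that is 46.7% and 28.9%, where the background was 25.3% and 30.0%. The share with both libraries below was therefore near that of all genes. Log2 fold changes (log2FC) are *Eya1*cKO over control and are given ± standard error. Over the 45 genes their median was 0.40, against 0.02 over all genes. The summed level of the 46 genes was 6138 and 6158 CPM in the controls against 6005 and 6183 CPM in *Eya1*cKO and, per kilobase of exon, 1173 and 1186 against 1332 and 1347 RPKM. Because the libraries are bulk samples, fewer cells that express a gene and less RNA of it per cell cannot be told apart here, for this and every later value. The counts rest on the spread of the control pair: without control 1 or without control 2, only 1 gene passed, whereas 21 or 18 were higher and 10 were lower without *Eya1*cKO 1 or *Eya1*cKO 2. The gene that still passed without either control was *Postn*, which had an adjusted *P* of 0.044 or less in every alternative run.

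**Figure D1:**
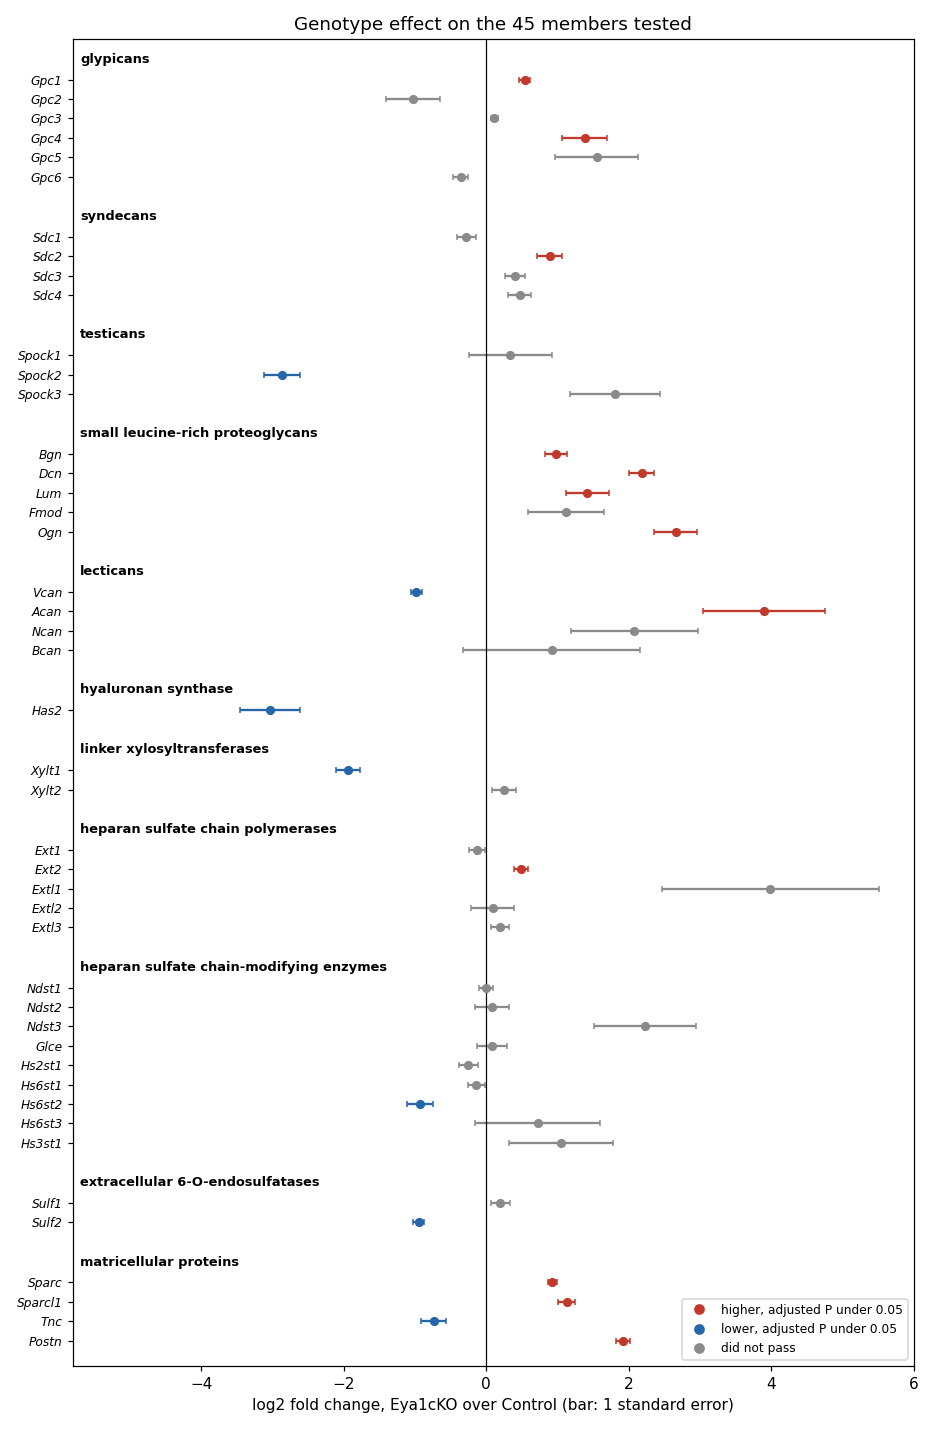
Log2 fold change of *Eya1*cKO over control for the 45 genes tested, grouped by role, with bars of 1 standard error. Red points are the 12 genes that were higher and blue points the 7 that were lower at an adjusted *P* of 0.05. Grey points did not pass. The small leucine-rich proteoglycans all lie to the right of 0, and most chain-modifying enzymes lie close to it.

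Glypicans were the most abundant group per length. *Gpc3*, a glypican that binds Hedgehog and Wnt proteins and is mutated in a human overgrowth syndrome, had the highest level of the 46 genes in both genotypes, 372 ± 1.15 RPKM in the controls and 401 ± 2.68 RPKM in *Eya1*cKO (CPM per kilobase of exon, mean ± SD, n = 2 libraries). In CPM it was at 999 and 1004 in the controls and at 1075 and 1085 in *Eya1*cKO, a log2FC of 0.11 ± 0.05 that did not pass (adjusted *P* = 0.22). Its libraries did not overlap between the genotypes, but the size of the difference was small beside that of other glypicans.

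*Gpc4* was at 27.4 and 28.2 CPM in control 1 and 2 and at 51.0 and 97.8 CPM in *Eya1*cKO 1 and 2. Both *Eya1*cKO libraries were higher, and they differed from each other by more than the lower of them differed from the controls. The log2FC was 1.38 ± 0.31 (adjusted *P* = 0.039), and it ranged from 0.86 without *Eya1*cKO 2 to 1.80 without *Eya1*cKO 1. *Gpc4* lost its call without the low-count filter, with legacy quasi-likelihood or after thinning to the smallest library. *Gpc1*, a widely expressed glypican, was at 234 and 251 CPM in the controls and at 349 and 355 CPM in *Eya1*cKO, with close replicates in both genotypes. Its log2FC was 0.54 ± 0.08 (adjusted *P* = 0.0095). Of its exonic length, 18.9% is shared with *Ankmy1* on the opposite strand, and the strand setting of the counting is not given in the sources used here.

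*Gpc3* and *Gpc4* lie in tandem on the X chromosome at 52272426 to 52613950 and 52053021 to 52165252 (GRCm38), with 107173 bases between them, and the sulfotransferase gene *Hs6st2* (51387212 to 51681856) lies 371164 bases further on. All 3 are on the minus strand. Of these, *Gpc4* rose, *Hs6st2* fell and *Gpc3* did not pass. *Gpc5* and *Gpc6* form a second tandem pair on chromosome 14 with 400135 bases between them. *Gpc6*, the third glypican in order of level in the controls, was at 192 and 186 CPM there and at 140 and 154 CPM in *Eya1*cKO, with a log2FC of -0.36 ± 0.10 that did not pass (adjusted *P* = 0.064). *Gpc5* was at 3.06 and 1.79 CPM in the controls and at 6.73 and 7.47 CPM in *Eya1*cKO, a log2FC of 1.55 ± 0.58 that did not pass (adjusted *P* = 0.14). *Gpc2* was at 14.0 and 14.8 CPM and at 7.21 and 6.84 CPM, with a log2FC of -1.03 ± 0.38 that did not pass (adjusted *P* = 0.13). Its values are uncertain, because 55.6% of its exonic length is shared with *Gm43720* on the same strand.

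As shares of the summed RPKM of the 6 glypicans, *Gpc3* made up 80.6% and 80.2% in the controls and 78.1% and 75.2% in *Eya1*cKO, and *Gpc4* 2.25% and 2.29% against 3.76% and 6.88%. The ratio of *Gpc3* to *Gpc4* was 35.9 and 35.0 in the controls against 20.8 and 10.9 in *Eya1*cKO. With 2 libraries against 2, an exact two-sided permutation test of such a ratio cannot give a *P* below 0.333. It gave 0.333 for this ratio and for each later ratio, so they are given as descriptions.

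Among syndecans, the transmembrane heparan sulfate proteoglycans, 1 of 4 passed. *Sdc2*, a syndecan of mesenchymal cells, was at 64.7 and 54.0 CPM in the controls and at 124 and 92.9 CPM in *Eya1*cKO. The genotypes did not overlap, although the *Eya1*cKO libraries had an SD of 22.1 CPM against 7.60 CPM in the controls. The log2FC was 0.89 ± 0.18 (adjusted *P* = 0.027), and like *Gpc4* it did not pass without the filter, with legacy quasi-likelihood or after thinning. *Sdc1*, which is typical of epithelia, had a log2FC of -0.28 (adjusted *P* = 0.21), *Sdc3* one of 0.40 and *Sdc4* one of 0.47 (adjusted *P* = 0.12 for each). The ratio of *Sdc2* to *Sdc1* in RPKM was 0.757 and 0.587 in the controls against 1.78 and 1.20 in *Eya1*cKO, so *Sdc1* was the more abundant of this pair in both control libraries and *Sdc2* in both *Eya1*cKO libraries.

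The testicans are secreted proteoglycans related to Sparc. *Spock2* made up 98.9% and 99.2% of the summed testican RPKM in the controls and was the fourth gene of the 46 in order of level there. The gene lies at chr10:60106219-60135198 (GRCm38). It was at 433 and 461 CPM in the controls and at 82.4 and 35.3 CPM in *Eya1*cKO. Both *Eya1*cKO libraries were far below the controls, and they differed from each other more than the controls did. The log2FC was -2.87 ± 0.25 (adjusted *P* = 0.0016), and it ranged from -3.67 without *Eya1*cKO 1 to -2.46 without *Eya1*cKO 2. *Spock3* was at 2.52 and 1.52 CPM in the controls and at 5.62 and 8.89 CPM in *Eya1*cKO, a log2FC of 1.81 ± 0.63 that did not pass (adjusted *P* = 0.12). For *Spock1* the log2FC was 0.34 and the genotypes overlapped. The summed testican level was 440 and 466 CPM in the controls against 93.4 and 47.8 CPM in *Eya1*cKO.

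Of the 5 small leucine-rich proteoglycans, which bind collagen fibrils, 4 were higher and *Fmod* did not pass, with a median log2FC of 1.42 over the group. Decorin and biglycan carry chondroitin or dermatan sulfate, and lumican, fibromodulin and osteoglycin are known as keratan sulfate proteoglycans. Decorin, *Dcn*, was at 21.6 and 26.3 CPM in the controls and at 102 and 117 CPM in *Eya1*cKO. The log2FC was 2.18 ± 0.17 (adjusted *P* = 0.0011). *Lum*, which encodes lumican and lies 46984 bases beyond *Dcn* on the plus strand of chromosome 10 (97565128 to 97572703), was at 12.8 and 14.6 CPM and at 43.5 and 28.4 CPM. Its log2FC was 1.42 ± 0.30 (adjusted *P* = 0.03), and the *Eya1*cKO libraries differed more for *Lum* than for its neighbour. *Lum* did not pass without the filter, with legacy quasi-likelihood or after thinning. Osteoglycin, *Ogn*, had the largest log2FC of the group, 2.66 ± 0.30 (adjusted *P* = 0.0038), and went from 5.81 and 8.07 CPM to 39.2 and 49.8 CPM. Biglycan, *Bgn*, was at 59.0 and 65.6 CPM in the controls and at 135 and 109 CPM in *Eya1*cKO, a log2FC of 0.98 ± 0.15 (adjusted *P* = 0.011). *Fmod*, which encodes fibromodulin, was at 2.75 and 4.19 CPM and at 7.08 and 8.32 CPM, with a log2FC of 1.12 ± 0.53 that did not pass (adjusted *P* = 0.22). Other genes of this family were counted with the other core proteins described further on, and none of them passed. Of these, 5 are named here, chosen after their values were seen. *Omd* had 27 and 20 reads in the controls and 0 in both *Eya1*cKO libraries, and *Aspn* had 42 and 21 reads against 2 and 4. *Ecm2* also lay below the controls in both *Eya1*cKO libraries (64 and 71 reads against 0 and 30), whereas *Prelp* (33 and 22 against 57 and 20) and *Optc* (5 and 1 against 18 and 20) lay above them in CPM.

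The summed level of these 5 genes was 102 and 119 CPM in the controls against 327 and 312 CPM in *Eya1*cKO. Within the group, *Bgn* went from 44.6% and 42.0% of the summed RPKM to 29.6% and 25.0%, and *Ogn* from 10.4% and 12.3% to 20.4% and 27.2%. These genes are typical of fibroblasts and stroma. Of 8 renal stroma markers, 4 were higher (*Pdgfrb*, *Col3a1*, *Foxd1* and *Tcf21*) and 1 was lower (*Tbx18*), and the summed level was 1926 to 1937 CPM in the controls and 3624 to 3667 CPM in *Eya1*cKO. *Col3a1* alone was at 962 to 965 CPM in the controls and at 2412 to 2431 CPM in *Eya1*cKO. No stroma marker was at 0 in any group. The part of stromal, adrenal or other cells in the rise of the small leucine-rich proteoglycans was not tested.

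**Figure D2:**
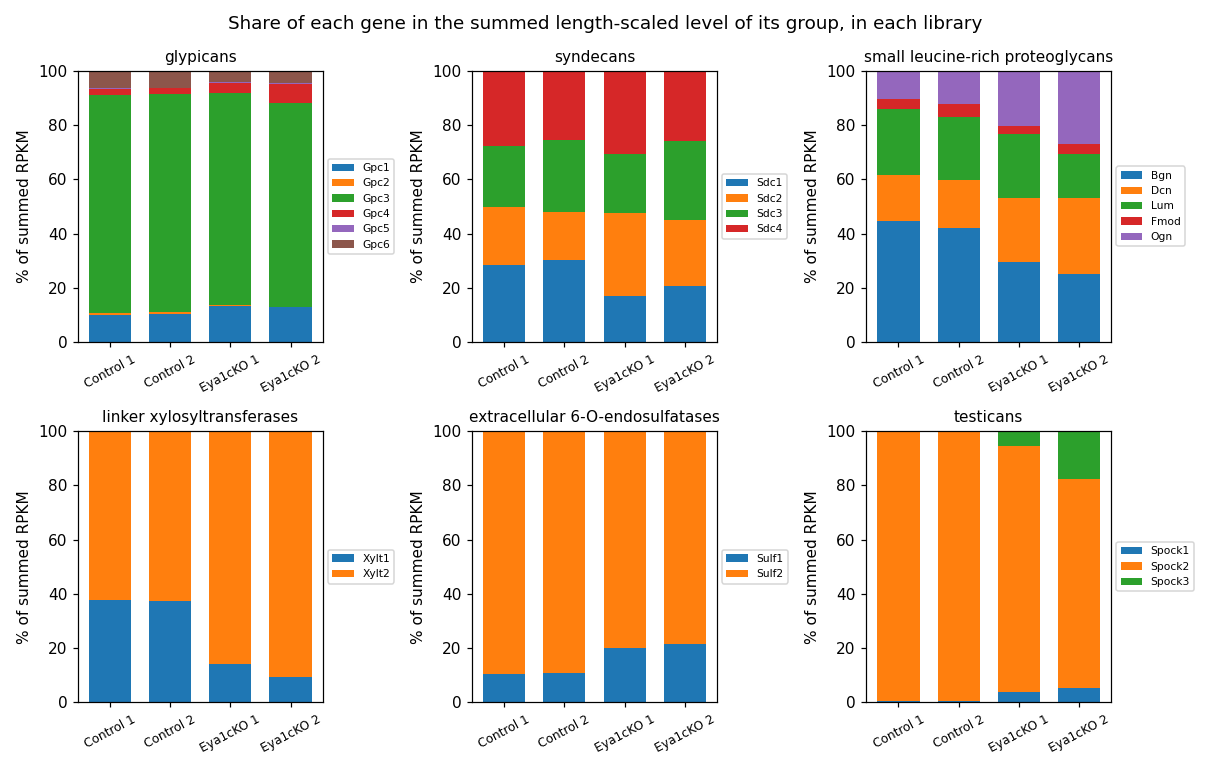
Share of each gene in the summed RPKM of its group, in percent, for 6 groups (panels) and the 4 libraries (bars). *Gpc3* and *Spock2* take most of their groups in every library, *Xylt1* falls from 37.6% and 37.2% of the xylosyltransferase pair to 14.0% and 9.35%, and *Ogn* and *Dcn* take a larger share of the small leucine-rich proteoglycans in both *Eya1*cKO libraries.

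Lecticans are large chondroitin sulfate proteoglycans that bind hyaluronan. Versican, *Vcan* (chr13:89655312-89742509), took 95.8% or more of their summed RPKM in every library and fell. It was at 1450 and 1410 CPM in the controls and at 667 and 784 CPM in *Eya1*cKO, a log2FC of -0.98 ± 0.08 (adjusted *P* = 0.0013). Aggrecan, *Acan*, best known from cartilage, moved the other way from a very low level, with 9 and 20 reads in the controls and 100 and 142 reads in *Eya1*cKO. These are 0.258 and 0.534 CPM and 4.43 and 8.09 CPM, a log2FC of 3.90 ± 0.85 (adjusted *P* = 0.028). It ranged from 3.44 without *Eya1*cKO 2 to 4.51 without control 2, and *Acan* lost its call without the low-count filter or with legacy quasi-likelihood. In RPKM *Acan* was at 1.23% and 1.95% of the lectican sum in *Eya1*cKO. *Ncan*, a lectican of nervous tissue, had 27 and 79 reads in the controls and 212 and 37 reads in *Eya1*cKO. These are 0.773 and 2.11 CPM and 9.38 and 2.11 CPM, so the genotypes overlapped (log2FC 2.08 ± 0.89, adjusted *P* = 0.18). The log2FC of *Ncan* was 0.51 without *Eya1*cKO 1 and 2.98 without control 2. *Bcan* had at most 15 reads in any library.

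*Has2*, the hyaluronan synthase gene of many embryonic mesenchymes (chr15:56665627-56694539), was at 42.2 and 39.2 CPM in the controls and at 2.12 and 8.55 CPM in *Eya1*cKO, from 1473, 1466, 48 and 150 reads. The log2FC was -3.04 ± 0.42, the lowest of the 45 genes tested (adjusted *P* = 0.0082), and it ranged from -4.27 without *Eya1*cKO 2 to -2.26 without *Eya1*cKO 1. This rank was not stable, since DESeq2 gave -2.92 for *Has2* and *Spock2* alike. Without *Eya1*cKO 1, *Spock2* was the lower of them, at -3.67. *Has2* did not pass with legacy quasi-likelihood. *Has2* thus fell together with *Vcan*, whose protein binds hyaluronan. None of the 13 tested genes of a list of other hyaluronan genes (the other synthases, receptors, link proteins and hyaluronidases) passed in either direction in edgeR's test. An unadjusted *P* under 0.05 was reached by 5 of them, where 5479 of all 19041 genes tested reached it, and DESeq2's Wald test called 1. The 10 nephron progenitor markers, all lower, are given above, and the part of a lower share of progenitors in the fall of *Has2*, *Vcan* and *Spock2* was not tested.

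Of the 18 heparan sulfate enzyme genes tested, 1 was higher, 3 were lower and 14 did not pass. The 1 higher gene is a share near the 5.15% of all genes tested, and the 3 lower genes stand beside a background of 4.41%. The first step, the transfer of xylose to the core protein, is shared by heparan sulfate and chondroitin sulfate and is done by either of 2 enzymes. *Xylt1* (chr7:117380979-117673580) was at 91.6 and 91.3 CPM in the controls and at 25.7 and 21.7 CPM in *Eya1*cKO, with a log2FC of -1.94 ± 0.17 (adjusted *P* = 0.0017). *Xylt2* was at 62.7 and 63.5 CPM and at 65.2 and 86.6 CPM, and its log2FC of 0.25 ± 0.17 did not pass (adjusted *P* = 0.38). The ratio of *Xylt1* to *Xylt2* in RPKM was 0.602 and 0.592 in the controls against 0.162 and 0.103 in *Eya1*cKO, and their summed RPKM was 25.3 and 25.4 in the controls against 19.0 and 24.0 in *Eya1*cKO.

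The chain itself is extended by a complex of Ext1 and Ext2. *Ext2* was at 109 and 107 CPM in the controls and at 152 and 150 CPM in *Eya1*cKO, a log2FC of 0.49 ± 0.10 with close replicates in both genotypes (adjusted *P* = 0.03). *Ext2* lost its call without the low-count filter. *Ext1* had a log2FC of -0.13 ± 0.11 (adjusted *P* = 0.51). The ratio of *Ext1* to *Ext2* in RPKM was 0.888 and 0.882 in the controls against 0.590 and 0.566 in *Eya1*cKO. *Extl3*, which is thought to start the heparan sulfate chain on the linker, and *Extl2* had log2FCs of 0.19 and 0.09 and overlapped between genotypes. *Extl1* had 25 and 4 reads in the controls and 14 and 243 reads in *Eya1*cKO. These are 0.716 and 0.107 CPM and 0.620 and 13.9 CPM. Its level in *Eya1*cKO came almost wholly from *Eya1*cKO 2, and its log2FC of 3.99 ± 1.52 did not pass (adjusted *P* = 0.13) and was 0.61 without that library.

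Sulfation and epimerization of the chain follow. *Ndst1*, whose product removes acetyl groups and adds N-sulfate as the first modification and is the main enzyme of its kind in most tissues, was at 193 and 188 CPM in the controls and at 179 and 203 CPM in *Eya1*cKO, with a log2FC of 0.00 and a standard error of 0.10. *Ndst2*, the epimerase gene *Glce*, *Hs2st1* (2-O-sulfation) and *Hs6st1* (6-O-sulfation) had log2FCs between -0.25 and 0.08, with standard errors from 0.12 to 0.24, and none passed. *Hs6st2* was the only gene of the chain-modifying group past the threshold, at 58.3 and 56.1 CPM in the controls and at 31.2 and 28.7 CPM in *Eya1*cKO. Its log2FC was -0.93 ± 0.18 (adjusted *P* = 0.024), and the ratio of *Hs6st2* to *Hs6st1* in RPKM was 0.406 and 0.419 in the controls against 0.240 and 0.236 in *Eya1*cKO.

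The other chain-modifying enzymes were at low levels. *Ndst3* had 53 and 51 reads in the controls and 101 and 170 reads in *Eya1*cKO, or 1.52 and 1.36 CPM and 4.47 and 9.69 CPM, with a log2FC of 2.23 ± 0.72 that did not pass (adjusted *P* = 0.1). That of *Ndst3* ranged from 1.62 without *Eya1*cKO 2 to 2.74 without *Eya1*cKO 1. *Hs3st1*, a 3-O-sulfotransferase known for the heparin site that binds antithrombin, was at 2.86 and 2.40 CPM in the controls and at 8.05 and 2.11 CPM in *Eya1*cKO, so the genotypes overlapped (log2FC 1.05 ± 0.73, adjusted *P* = 0.38). *Hs6st3* also overlapped, at 1.37 and 1.55 CPM and at 0.929 and 4.33 CPM. *Ndst4*, with 20, 3, 7 and 0 reads in the controls and then *Eya1*cKO, was not tested, and the 0 in *Eya1*cKO 2 allows up to 0.171 CPM (3 counts). Such limits cover counting error only, since PCR copies of one molecule are not independent.

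Sulf1 and Sulf2 remove 6-O-sulfate from finished chains outside the cell. *Sulf2* (chr2:166073089-166155663) was at 397 and 399 CPM in the controls and at 198 and 216 CPM in *Eya1*cKO, a log2FC of -0.95 ± 0.08 (adjusted *P* = 0.0015). *Sulf1* was at 88.9 and 92.1 CPM and at 95.0 and 114 CPM, with a log2FC of 0.20 ± 0.13 that did not pass (adjusted *P* = 0.37). *Sulf2* stayed the more abundant of the pair, but the ratio of *Sulf1* to *Sulf2* in RPKM was 0.116 and 0.120 in the controls against 0.250 and 0.274 in *Eya1*cKO. Transcripts for an enzyme that adds 6-O-sulfate (*Hs6st2*) and for one that removes it (*Sulf2*) were thus both lower.

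Matricellular proteins modulate how cells attach to the matrix. *Postn*, which encodes periostin (chr3:54361109-54391037), had the smallest *P* of the 46 genes. It was at 84.2 and 78.7 CPM in the controls and at 299 and 319 CPM in *Eya1*cKO, a log2FC of 1.92 ± 0.10 (adjusted *P* = 1.9e-04). *Sparc*, a collagen-binding protein, was the second gene in order of level in both genotypes, at 544 and 562 CPM in the controls and at 1084 and 1023 CPM in *Eya1*cKO. Its log2FC was 0.93 ± 0.06 (adjusted *P* = 5.9e-04). Its relative *Sparcl1* was at 57.8 and 59.2 CPM and at 131 and 125 CPM, a log2FC of 1.13 ± 0.12 (adjusted *P* = 0.0033). Tenascin C, *Tnc*, moved the other way, from 67.6 and 66.3 CPM to 35.2 and 46.3 CPM, with a log2FC of -0.74 ± 0.18. Its adjusted *P* was 0.049, and it did not pass in 8 of 12 alternatives, among them another scaling of the libraries. The summed level of the 4 genes was 753 and 766 CPM in the controls against 1549 and 1513 CPM in *Eya1*cKO. *Sparc* and *Sparcl1* are also expressed by endothelium, of which all 8 markers were higher, with a summed level of 618 to 629 CPM in the controls and 1068 to 1127 CPM in *Eya1*cKO. Podocyte markers summed to 888 to 908 CPM and to 2806 to 2869 CPM. The part of these cells in the higher matricellular genes was not tested.

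**Figure D3:**
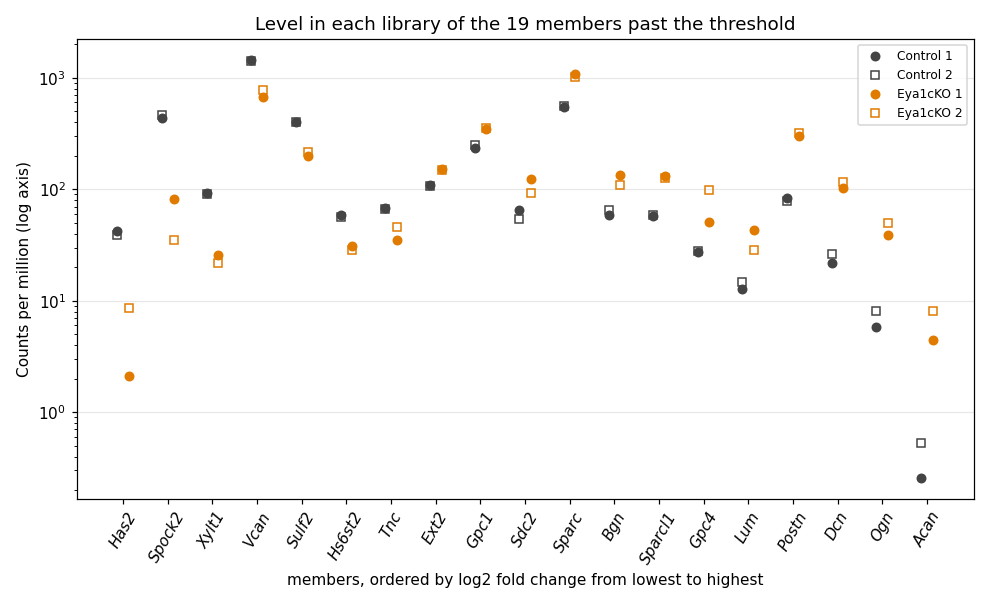
Level in CPM (log axis) of the 19 genes past the threshold in each of the 4 libraries, ordered by log2 fold change from *Has2* to *Acan*. Grey symbols are controls and orange symbols *Eya1*cKO, circles replicate 1 and squares replicate 2. In each gene the *Eya1*cKO libraries lie on one side of both controls, and they are farthest apart from each other in *Has2* (2.12 and 8.55 CPM), *Spock2* (82.4 and 35.3 CPM), *Gpc4* and *Acan*.

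In order of level per length, the controls had *Gpc3* (372 RPKM), *Sparc* (146), *Vcan* (98.9), *Spock2* (80.8), *Sulf2* (67.8) and *Gpc1* (46.9). In *Eya1*cKO the order was *Gpc3* (401 RPKM), *Sparc* (278), *Gpc1* (68.2), *Vcan* (50.2), *Sparcl1* (43.6), *Postn* (35.5) and *Sulf2* (35.2). Neighbours in the control order were farther apart than the SD of their libraries, at most 3.47 RPKM. In *Eya1*cKO, *Postn* and *Sulf2* differed by less than their SDs of 1.59 and 2.18 RPKM, and *Vcan* and *Sparcl1* were not far beyond the *Vcan* SD of 5.70 RPKM. *Spock2* left this part of the order, at 10.6 ± 6.02 RPKM.

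Promoter sequences are shown for a few of the genes that passed. Of the genes in each direction, the 2 with the smallest *P* were taken among those whose RefSeq start has its upstream bases outside the annotated gene. They were *Postn* and *Ogn*, which rose, and *Vcan* and *Sulf2*, which fell. RefSeq windows (GRCm38.p6) were matched by symbol for 33 of the 46 genes. Each line holds the 250 bases before the start, 5′ to 3′ on the strand of the gene. Capitals mark any match, on either strand, to the letters of 5 motifs. The TATA box was searched as TATAAA, the core of the GC box as GGGCGG and the core of the CCAAT box by that name's letters. Of the element bound by REST, a repressor that the study examined with Eya1, the right-hand part was searched as GGACAGC, and the left-hand part as TTCAGCACC. The *Postn* stretch is chr3:54360857-54361106 (plus strand), that of *Ogn* chr13:49607765-49608014 (plus), that of *Vcan* chr13:89742513-89742762 (minus) and that of *Sulf2* chr2:166155684-166155933 (minus).
Postn: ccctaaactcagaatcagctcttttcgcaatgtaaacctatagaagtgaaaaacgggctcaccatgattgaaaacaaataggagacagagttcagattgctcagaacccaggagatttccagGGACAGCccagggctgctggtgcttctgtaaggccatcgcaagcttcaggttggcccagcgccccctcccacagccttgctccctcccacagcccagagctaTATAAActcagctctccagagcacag
Ogn: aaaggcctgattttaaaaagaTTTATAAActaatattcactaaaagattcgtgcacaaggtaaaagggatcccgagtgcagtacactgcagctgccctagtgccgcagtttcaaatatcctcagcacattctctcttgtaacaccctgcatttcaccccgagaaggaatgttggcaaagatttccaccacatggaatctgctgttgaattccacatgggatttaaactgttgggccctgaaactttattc
Vcan: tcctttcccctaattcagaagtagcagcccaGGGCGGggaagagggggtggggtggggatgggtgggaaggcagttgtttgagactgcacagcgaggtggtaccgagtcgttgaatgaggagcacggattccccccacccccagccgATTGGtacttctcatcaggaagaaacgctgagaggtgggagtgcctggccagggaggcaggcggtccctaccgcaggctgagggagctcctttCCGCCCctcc
Sulf2: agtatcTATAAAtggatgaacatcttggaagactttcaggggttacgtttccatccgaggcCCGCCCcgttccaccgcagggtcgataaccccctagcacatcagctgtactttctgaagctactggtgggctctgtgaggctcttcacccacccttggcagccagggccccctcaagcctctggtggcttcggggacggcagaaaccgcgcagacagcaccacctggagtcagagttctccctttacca
The *Postn* stretch holds TATAAA 26 bases and GGACAGC 128 bases before the start. In *Ogn* the match to TATAAA lies over 200 bases upstream, and its capitals join matches on both strands that overlap. *Vcan* holds GGGCGG at both ends and CCAAT between them, and *Sulf2* holds TATAAA and GGGCGG far from its start. In none of these 4 windows did the first 20 bases after the start occur in a GENCODE transcript of the gene, as they did in 25 of the 40 windows of these genes. Such a match could lie anywhere in the transcript and not only at its start. *Postn* and *Sulf2* each have another RefSeq window. That of *Postn*, likewise without a matching transcript, holds no TATAAA, and that of *Sulf2*, which matches a transcript, holds CCAAT and neither TATAAA nor GGGCGG.

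Over all 40 RefSeq windows of these genes (250 bases before the start and 50 after it), GGACAGC was found in 1, that of *Postn*, where 6.56% of all 32851 windows held it, and TTCAGCACC in none, against 0.371%. GGGCGG was found in 23 of the 40, against 35.7%, CCAAT in 15, against 37.4%, and TATAAA in 8, against 13.6%. The median GC content was 56.6% in the 8 windows of genes that were higher, 56% in the 8 of genes that were lower and 66% in the 24 of genes that did not pass, where all windows had 52.7%. The windows of genes that did not pass held a median of 22.5 CpG dinucleotides, and those of higher and lower genes 7 and 12, where all windows had 7. In some of these windows the bases before the start lie inside the annotated gene, among them those of *Gpc4*, *Sparc*, *Hs6st2*, *Extl1* and *Sdc4*. They were counted with the rest. A match is a string of letters and not a measured binding site.

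**Figure D4:**
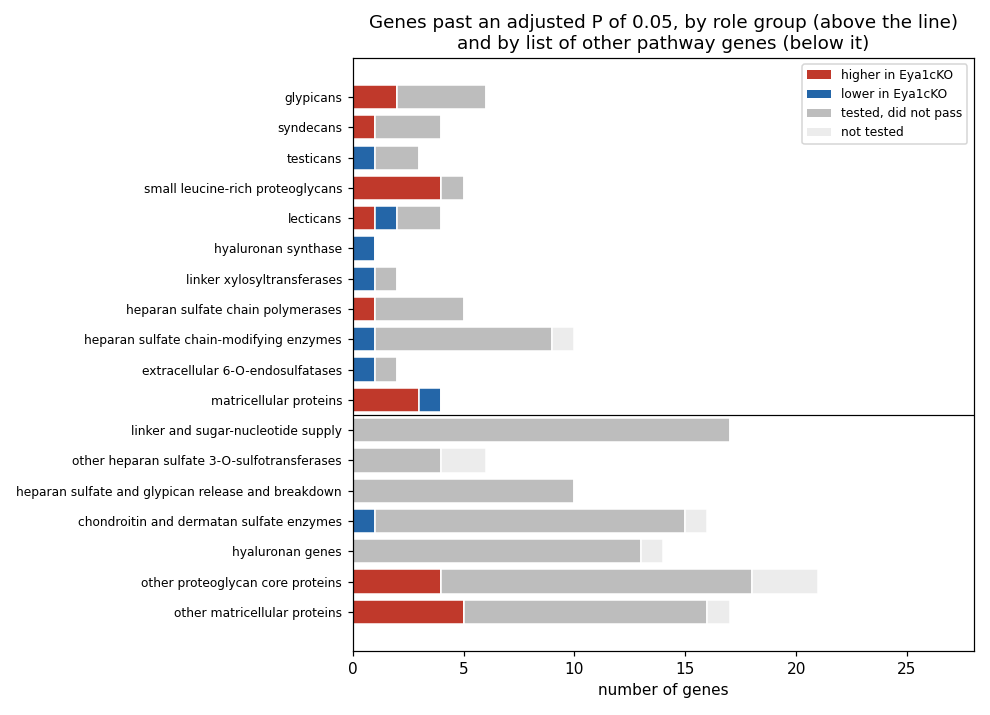
Number of genes higher (red), lower (blue), tested without passing (grey) and not tested (pale) in *Eya1*cKO, by role group of the 46 genes above the line and by list of other pathway genes below it. At least 1 gene passed in each of the 11 role groups, and no gene passed in 4 of the 7 lists below the line.

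Other genes of the same pathways were counted in 7 lists that hold 101 genes. Of the 93 tested, 9 were higher, 1 was lower and 83 did not pass, where 5.15% of all genes tested were higher and 4.41% lower. The median log2FC was 0.30. No gene passed among 17 genes that complete the linker or supply nucleotide sugars and sulfate donors, among 4 tested 3-O-sulfotransferases, among 10 genes for the release and breakdown of heparan sulfate and glypicans, or among the hyaluronan genes above. In these first 3 lists 4, 0 and 0 genes had an unadjusted *P* under 0.05 in edgeR's test, and DESeq2's Wald test called 1, 0 and 0. Over all 19041 genes tested, 5479 had an unadjusted *P* under 0.05 in edgeR's test. The number that DESeq2's Wald test called over all genes is given with the alternatives below. Of 15 tested enzymes of chondroitin and dermatan sulfate, only *Chsy1*, a chondroitin polymerase gene, passed. It was at 160 and 165 CPM in the controls and at 113 and 100 CPM in *Eya1*cKO, a log2FC of -0.60 ± 0.11 (adjusted *P* = 0.02). In this list 4 genes had an unadjusted *P* under 0.05 in edgeR's test, of which 3 were higher and 1 lower, and DESeq2's Wald test called 1 higher and 1 lower.

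Of 18 other proteoglycan core proteins tested, 4 were higher, and a further 2 had an unadjusted *P* under 0.05 in edgeR's test, one of them lower. The 4 were *Agrn* and *Col18a1*, basement membrane heparan sulfate proteoglycans, *Tgfbr3*, a coreceptor for Tgf-beta proteins, and *Cspg4*, which is also a mural cell marker. *Tgfbr3* had the largest log2FC of the 4, at 1.77 (adjusted *P* = 0.0011), and went from 43.4 and 41.7 CPM to 155 and 133 CPM. *Agrn* went from 552 and 561 CPM to 894 and 907 CPM (log2FC 0.69, adjusted *P* = 0.0014). *Col18a1* had a log2FC of 0.59 and *Cspg4* one of 0.81. Of 16 other matricellular genes tested, 5 were higher, among them *Smoc1* (log2FC 2.25), *Thbs3* (1.02), *Ccn1* (0.51) and *Fstl1* (0.36). The fifth, *Spp1*, which encodes osteopontin and was chosen after its values were seen, had 11 and 1 reads in the controls and 88 and 153 in *Eya1*cKO (log2FC 5.14 ± 1.12, adjusted *P* = 0.027). An unadjusted *P* under 0.05 was reached by 8 of the 16, of which 7 were higher and 1 was lower, where 5479 of all 19041 genes tested reached it. DESeq2's Wald test called 7 of the 16, all higher. Of 7 mural markers, 2 were higher and 1 was lower, and their summed level was 270 to 286 CPM in the controls and 299 to 337 CPM in *Eya1*cKO.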

How the data were processed

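The authors sequenced random-primed, strand-specific libraries from single ends, mapped the reads to mm10 with HISAT2 and counted them on Ensembl genes with HTSeq. The deposited values are these raw counts per gene, without normalization, and the strand setting of the counting is not given in the sources used here. Groups were taken from the labels, which give 6 kidneys per genotype from 4 females. The published methods state the numbers of kidneys and of females differently. The genes and lists were chosen with earlier results of these data known.

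Counts were tested in R 4.3.3 with edgeR 4.0.16: filterByExpr with a minimum count of 10, TMM scaling, glmQLFit and glmQLFTest on the genotype over all 19041 genes that passed, and Benjamini-Hochberg adjustment at 0.05. The standard error of a log2 fold change is its size divided by the root of its F statistic. CPM use TMM-scaled totals, and RPKM divide them by exonic length in GENCODE M21 (GRCm38). All 46 genes are named, with values per library for those that passed or had an absolute log2 fold change over 1. Other pathway genes are named where they passed, at most 4 in each direction of a list, apart from those said to be chosen after their values were seen. Symbols were paired with 52403 of the 52636 identifiers. In GENCODE M21, 9 of the 46 genes share exonic bases with another gene. The test was checked on simulated counts that had the same spread beyond sampling noise in every gene and genotype. That check does not cover the unequal spread of the genotypes given below. Alternatives were DESeq2 1.42.0 (its size factors and its Wald test), library totals alone, no filter, at least 10 counts in every library, legacy quasi-likelihood, a replicate block, thinning to the smallest library, and each library left out in turn. Replicates were not duplicates of one library, since counts differed beyond sampling noise (chi-square per degree of freedom 9.33 in the controls and 45.5 in *Eya1*cKO). Each group has 2 libraries, so no sample was tested as an outlier.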

Additional observations from a re-analysis of the deposited data

Results flagged for a closer look

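Reads outside the gene counts differed between the genotypes. Of all recorded reads, 22.7% and 20.9% fell on no gene in *Eya1*cKO 1 and 2, where control 1 and 2 had 13.9% and 12.9%. Reads recorded as not aligned were 12.9% and 12.7% in *Eya1*cKO 1 and 2, where the controls had 6.32% and 6.69%. Both *Eya1*cKO libraries thus lay above both controls in both measures, which the comparisons of genes did not use. Their part in the values of the genes described was not tested.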

How the results depend on the processing

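With all 4 libraries, 12 genes of the 46 were higher in *Eya1*cKO and 7 were lower, and 1820 of all genes passed. The count of higher genes was 7 without the low-count filter, and between 8 and 14 under the other scalings, filters and tests without a replicate block, and the count of lower genes was between 5 and 8. Over all genes, 1055 passed without the filter, 2734 with DESeq2's Wald test, 1096 with legacy quasi-likelihood and 1182 after thinning to the smallest library. Leaving out 1 library gave from 23 to 7925 genes in all, from 1 to 21 higher and from 0 to 10 lower. The low counts came without either control, where the spread rests on the *Eya1*cKO pair. With a replicate block 621 genes passed in all, with 7 of the 46 higher and 5 lower. The numbers share only a name, as the deviations of same-numbered libraries had a correlation of 0.00905. With all 4 libraries, *Tnc* lost its call in 6 alternatives, and *Gpc4*, *Sdc2* and *Lum* did so in 4. *Acan* lost it without the filter and with legacy quasi-likelihood, *Ext2* without the filter and with the block, *Has2* with legacy quasi-likelihood, and *Bgn* and *Hs6st2* with the block. DESeq2's Wald test also called *Extl1* (adjusted *P* = 0.017) and *Ndst3* (0.034), and *Gpc6* passed as lower with at least 10 counts in every library (0.04).

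Signs changed only in genes that had not passed. The log2 fold change of *Ndst1* was -0.02 without the filter, -0.01 with at least 10 counts in every library, -0.00 and -0.03 without control 1 and control 2, and -0.10 without *Eya1*cKO 2. Without *Eya1*cKO 1, *Spock1* was at -0.02, *Extl2* at -0.14, *Glce* at -0.22 and *Hs3st1* at -0.33. Without *Eya1*cKO 2, *Ndst2* was at -0.21 and *Hs6st3* at -0.67. Without control 1, *Extl2* was at -0.09 and *Ndst2* at -0.08. With a library left out in turn, the highest values were 0.54 for *Spock1*, 0.26 for *Extl2* and for *Glce*, 0.08 for *Ndst1*, 0.35 for *Ndst2*, 1.55 for *Hs6st3* and 1.60 for *Hs3st1*. The causes were not tested. Depth limits the 13 genes with under 100 reads in at least 1 library, of which *Acan* and *Has2* had passed.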
